A study of Rattus norvegicus with 60 samples.

Results

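The regions described here are stretches of the rat genome with few CpG sites that were mostly methylated in the dorsal root ganglia of untreated rats. Members were chosen by their CpG density and by their measured level in controls, from the union of all regions listed in 20 bisulfite libraries. The highest number of CpGs in any library, divided by end minus start, was under 0.05 per base. At least 5 control libraries had a value, and the mean methylation level over the controls was 0.5 or more, where 0 means that no CpG call was methylated and 1 that all were. Of 2519 regions listed, 1473 were CpG-sparse, 1472 of these had at least 5 control values, and 802 (31.8% of all) met the whole rule.

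Sprague-Dawley rats (SD rats in the labels) given 0.1 mL of complete Freund's adjuvant (CFA) under the skin of 1 foot were compared with rats given no treatment, with 10 bisulfite libraries in each group. The adjuvant holds killed mycobacteria in oil and provokes long-lasting inflammation where it is injected, for which it serves as a model of inflammatory pain. The labels state neither age, sex, time from injection to dissection nor the side of the ganglia. The ganglia hold sensory neurons, satellite glia, Schwann cells, vessels and immune cells, so a shift in the mix of cells and a change of methylation within cells cannot be told apart.

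In mammalian DNA, methyl groups sit on the cytosine of CpG sites. DNMT3A and DNMT3B place new ones, DNMT1 copies them at cell division, and TET enzymes start their removal. CpG islands at promoters are usually unmethylated, whereas the CpG-poor bulk of the genome is usually methylated in adult tissue. The level of a region is a mean over its CpGs, so a value between the extremes can come from differences between DNA molecules, between CpGs of the region, or both.

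The tissue label was looked at in the small RNA libraries, which held between 3360055 and 13097872 counts. Of 13 marker miRNAs, 9 matched a listed name. The sensory neuron markers miR-183-5p and miR-96-5p together made up between 11100 and 37800 CPM (counts scaled to the library's total of small RNA counts). The muscle markers miR-1-3p, miR-133a-3p and miR-206-3p made up between 939 and 4970 CPM, and the blood markers miR-451-5p and miR-223-3p between 218 and 1280 CPM. The myelinating glia marker miR-338-3p lay between 1170 and 2420 CPM. The liver marker miR-122-5p lay between 1.49 and 3.22 CPM in controls and between 1.05 and 829 CPM in CFA, where its median was 3.29 CPM. The labels do not say that equal numbers in different assays mark the same rat, so these levels cannot be assigned to bisulfite libraries.

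The members were short. Their length ran from 201 to 1392 bases with a median of 375.5, and their highest CpG number from 9 to 34 with a median of 11. In 48.0% of them the highest CpG number was exactly 10, which was also the case for 43.1% of the 670 CpG-sparse regions mostly unmethylated in controls and for 52.5% of the 1046 regions that were not CpG-sparse. They lay on all autosomes and on the X chromosome, from 88 on chromosome 1 to 7 on X. Among the CpG-sparse regions with at least 5 control values, the share that were members ran from 42.5% (17 of 40) on chromosome 17 to 70.0% (35 of 50) on chromosome 20.

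The control levels, which chose the members, are given as a description. The control mean had a median of 0.696 over the 802 regions, with quartiles at 0.597 and 0.787 and a highest value of 0.958. Only 44 regions had a control mean of 0.9 or more, so most members were partly and not fully methylated. In 355 members every control with a value lay at 0.5 or above, and in 447 at least 1 control lay below. Near the limit of 0.5, the members just inside were chr1:124467080-124467509 and chr3:157738095-157738503, with control means of 0.502 and 0.502 and CFA means of 0.657 and 0.386. The regions just outside, chr4:150818245-150818657 and chr3:148167457-148167983, had control means of 0.499 and 0.4995 and CFA means of 0.412 and 0.416. At the density limit, chr6:126657686-126657887 and chr1:33758932-33759153 were the last inside, both at 0.0498 CpGs per base, and chr11:30246513-30246753 and chr18:3472839-3473039 lay at the limit of 0.05 and were left out.

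Libraries CFA 8, 9 and 10 stood apart and bear on every result below. They had a value in 418, 425 and 355 of the 802 members, against 735 to 774 in controls and 738 to 796 in CFA 1 to 7. Where they had a value it rested on a mean of 5.29, 5.76 and 5.71 CpGs, against 7.98 to 8.98 in controls and 8.17 to 9.85 in CFA 1 to 7. A level of exactly 1 was found in 32.8%, 33.6% and 31.5% of their values and a level of exactly 0 in 9.57%, 7.06% and 7.04%. In the other 17 libraries at most 5.31% of the values were 1 and at most 0.678% were 0. The product of level and CpG number was within 0.02 of a whole number for 69.6% to 73.9% of their values and for 5.78% to 11.8% in the other libraries. No coverage is given in the files, and what sets these libraries apart was not tested. Of the members, 121 had no value in any of the 3 and 133 had a value in all of them.

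**Figure D1:**
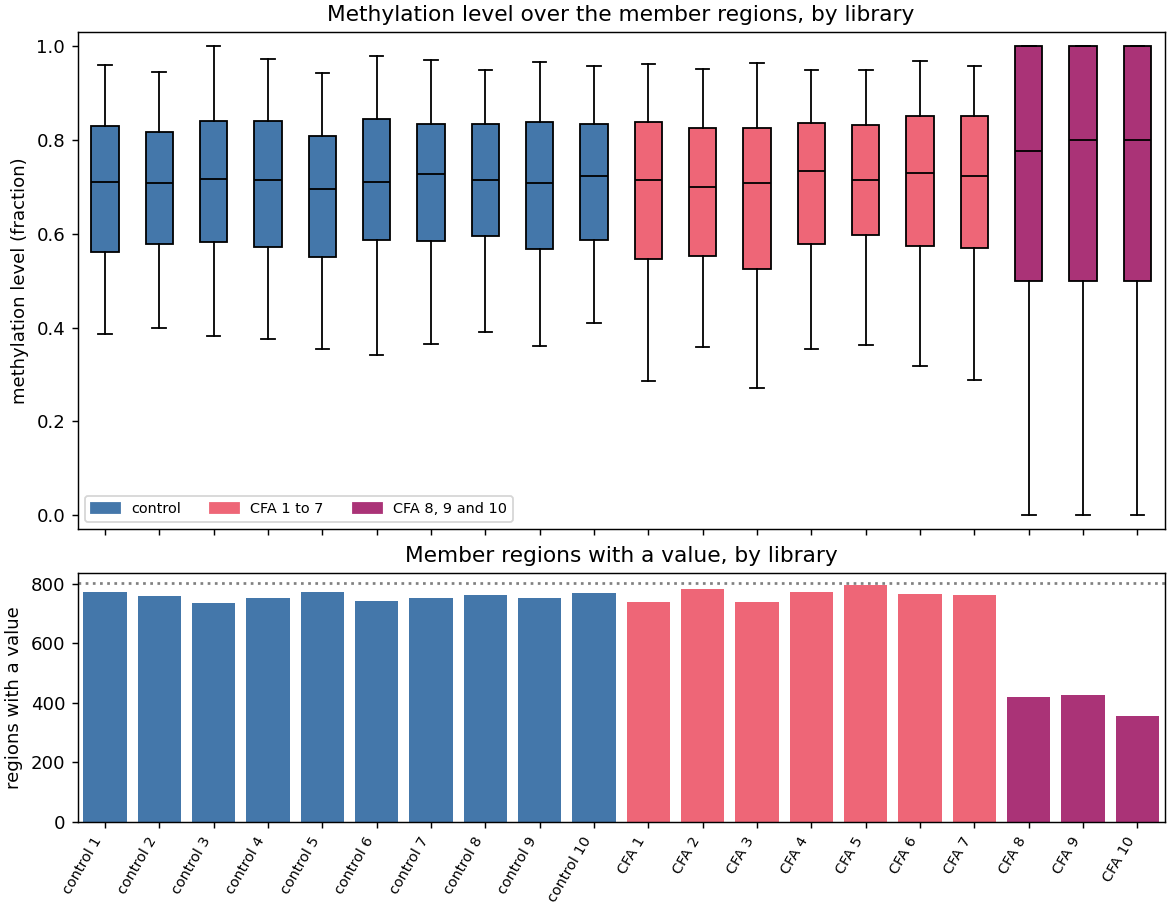
Upper panel: methylation level (fraction, y axis) of the member regions in each of the 20 libraries; boxes span the quartiles with the median as a line, and whiskers reach the 5th and 95th percentiles. Lower panel: number of the 802 members with a value in each library (dotted line at 802). CFA 8, 9 and 10 reach from 0 to 1 and have 418, 425 and 355 values.

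Averaged over members, the groups had almost the same level. The mean level per library was 0.696 ± 0.0087 in controls (SD, n = 10, range 0.676 to 0.706), 0.687 ± 0.0124 in CFA 1 to 7 (SD, n = 7, range 0.666 to 0.6997) and 0.696, 0.713 and 0.701 in CFA 8, 9 and 10. The ranges of controls and CFA 1 to 7 overlapped. Control libraries had 11.2% to 16.1% of their values below 0.5, and CFA 1 to 7 had 13.9% to 21.5%. No test is given for these sums, since the controls chose the regions.

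Region by region, the members parted into a lower and a higher set with few in between. The CFA mean lay below the control mean in 410 members and above it in 392, and the difference was under 0.04 in size in 62. The 410 had a median difference of -0.123 and the 392 one of 0.122, and the extremes were -0.367 and 0.309. Without CFA 8, 9 and 10, 420 lay below and 382 above, with medians of -0.108 and 0.105. In 22 members the sign of the difference changed when these libraries were left out. The deposited files name the listed regions as differentially methylated, so nothing is read from the small number near 0. When each library's value was weighted by its CpG number, 6 members differed by less than 0.04 with all 10 CFA libraries and 26 without CFA 8, 9 and 10.

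**Figure D2:**
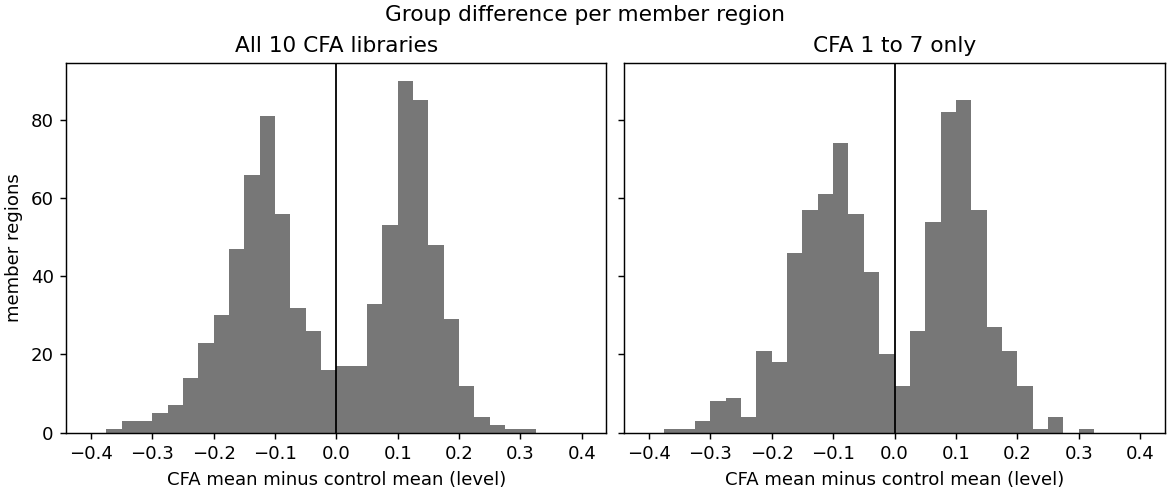
Number of member regions (y axis) by CFA mean minus control mean of the methylation level (x axis), with all 10 CFA libraries (left) and with CFA 1 to 7 only (right). Both panels have a peak on each side of 0, with 410 lower and 392 higher on the left and 420 lower and 382 higher on the right.

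A difference of at least 0.1 was found in 280 members on the lower side and 272 on the higher side, and one of at least 0.2 in 56 and 20. Without CFA 8, 9 and 10 these counts were 229 and 206, and 47 and 18. By control level, which the rule used and which enters the difference itself, the directions are given as a description only. Of the members with a control mean from 0.5 to 0.6, from 0.6 to 0.7 and from 0.7 to 0.8, 43.3%, 42.6% and 46.0% were lower in CFA 1 to 7. The share was 77.0% from 0.8 to 0.9, and of the 44 members at 0.9 or more, 42 were lower and 2 higher. Nothing is read from these shares. Of the members, 117 had a CFA mean below 0.5, and 107 had a mean below 0.5 in CFA 1 to 7.

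**Figure D3:**
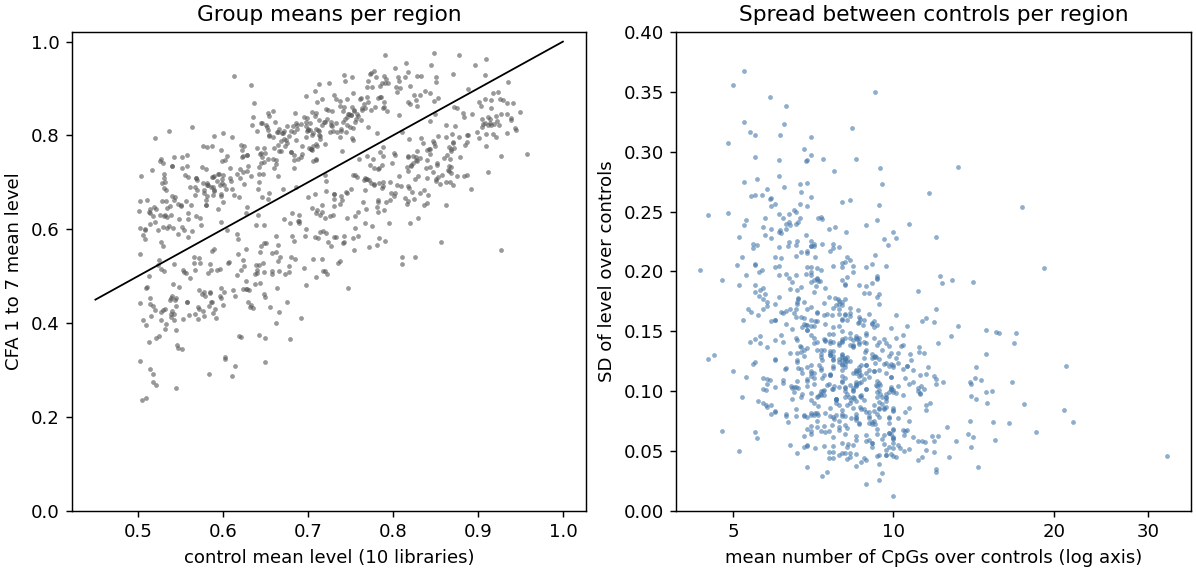
Left: mean level over CFA 1 to 7 (y axis) against the mean level over 10 controls (x axis), 1 point per member region, with the line of equal means. The points form 2 bands, of 382 regions above the line and 420 below it. Right: SD of the level over controls (y axis) against the mean number of CpGs over controls (x axis, log scale), where the spread is widest at low CpG numbers.

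In the fit across all regions, no member was called. Of 800 members with at least 5 values per group, limma called 0 lower and 0 higher after Benjamini-Hochberg adjustment over all 2434 regions tested, where 0.0822% of all regions were called lower and 0.0% higher. Without CFA 8, 9 and 10 it called 0 of 782 in either direction, against 0.0856% of 2337 regions called lower and 0.0% higher. An unadjusted limma p under 0.05 was found for 296 of 800 members (144 lower and 152 higher), against 32.7% of all regions (15.2% lower and 17.5% higher), and for 255 of 782 without the 3 libraries (150 lower and 105 higher), against 31.0% (15.7% lower and 15.4% higher). Because the control levels chose the members and the list is named for a group difference, nothing is read from these counts. The smallest limma adjusted p among members was 0.0558 with all libraries and 0.0809 without CFA 8, 9 and 10, both in the region L3 below.

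The groups did not overlap in 2 members, both higher in CFA, and in 0 that were lower. Among all regions tested, 0.0822% were separated with CFA higher and 0.123% with CFA lower. Without CFA 8, 9 and 10, 2 of 782 members were separated with CFA higher and 0 with CFA lower, against 0.128% and 0.171% of all regions. The separated members are counted in these shares of the whole list, and nothing is read from them.

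The first of these, S3 at chr7:110192405-110192888, was separated with and without CFA 8, 9 and 10. Its level lay between 0.709 and 0.792 in 10 controls, with a median of 0.733. In 9 CFA libraries it lay between 0.794 and 1, with a median of 0.872, and CFA 9 and CFA 10 both stood at 1. Every CFA library with a value was above every control. The difference was 0.143 (limma SE 0.0399, adjusted p = 0.121), and 0.11 without CFA 9 and 10. In this region controls averaged 9.4 CpGs and CFA libraries 8.56. The same region had 1 of the 3 lowest SDs over controls among the 715 members with at least 8 control values and at least 6 values in CFA 1 to 7, at 0.0258.

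The second, Z2 at chr6:100430662-100431087, had 7 control values between 0.633 and 0.85 and 5 CFA values between 0.88 and 1. Only 4 of these came from CFA 1 to 7, so it was not tested without CFA 8, 9 and 10. The region Z1 at chr5:149755161-149755794 was separated only when those 3 were left out. Its 10 controls lay between 0.31 and 0.673 with a median of 0.532, and CFA 1 to 7 between 0.678 and 0.768 with a median of 0.724. CFA 8 and CFA 10, at 0.59 and 0.612, fell among the controls, and CFA 9 stood at 0.854. Both regions were named after their values were seen, for the separation of their groups.

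The following 12 regions had the most negative (L1 to L6) and the most positive (H1 to H6) difference among the 715 members named above. They are a description of the ends of the distribution. Limma called none of the 12 in the fit with all libraries.

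L1, at chr13:72329034-72329435, stood between 0.169 and 0.875 in 10 controls with a median of 0.523, and between 0 and 0.391 in 9 CFA libraries with a median of 0.152. CFA 8, 9 and 10 all stood at 0, and 5 of 9 CFA libraries lay below every control. The difference was -0.349 (limma SE 0.0792) and -0.269 without those 3 libraries, over means of only 5.1 and 5.67 CpGs. In CFA 8, 9 and 10 the values of 0 rested on 3, 3 and 1 CpGs, against a mean of 7.33 in CFA 1 to 7. L2, at chr12:45185820-45186063, stood between 0.442 and 0.884 in 10 controls with a median of 0.722, and between 0 and 0.579 in 8 CFA libraries with a median of 0.394. Here the 0 came from CFA 10, and CFA 1 to 7 lay between 0.15 and 0.579, so the groups overlapped with and without it.

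L3, at chr6:40838990-40839315, stood between 0.39 and 0.805 in 10 controls with a median of 0.571, and between 0 and 0.483 in 8 CFA libraries with a median of 0.256. Of the 8, 6 lay below every control. The 0 was CFA 8, and the difference was -0.329 (limma SE 0.0698) with it and -0.293 without it, over means of 7.7 and 7.88 CpGs. L4, at chr12:16824050-16824613, had no value in CFA 8, 9 and 10. Its 8 controls ran from 0.15 to 1 with a median of 0.699. CFA 1 to 7 ran from 0.0988 to 0.604 with a median of 0.4, a difference of -0.313 with wide overlap. The highest control value, that of control 5, rested on only 1 CpG, as did the value of control 6. Weighted by CpG number, the difference was -0.253.

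L5, at chr19:38733886-38734110, stood between 0.129 and 0.867 in 10 controls and between 0 and 0.544 in 8 CFA libraries, with medians of 0.595 and 0.143. Among the CFA values, those of CFA 7, 8 and 9 were 0. L6, at chr6:125251309-125251614, stood between 0.221 and 0.828 in 10 controls and between 0 and 0.844 in 7 CFA libraries, with medians of 0.625 and 0.369. Its CFA values thus covered more than the whole control range, with CFA 4 above every control and CFA 3, 6 and 7 below every control.

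On the higher side, H1 at chr16:19346809-19347067 stood between 0.075 and 0.9 in 10 controls with a median of 0.587, and between 0.625 and 1 in 8 CFA libraries with a median of 0.822. The CFA libraries were spread less than the controls, with SDs of 0.131 and 0.258. The difference was 0.2996 (limma SE 0.0942) and 0.274 without CFA 10, the 1 value from CFA 8, 9 and 10. H2, at chr19:24839227-24839542, ran from 0 to 1 in 9 controls with a median of 0.536, and from 0.517 to 0.98 in 6 CFA libraries with a median of 0.817. The control range included the whole CFA range.

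H3, at chr20:10215949-10216181, stood between 0.183 and 0.7 in 10 controls with a median of 0.536, and between 0.608 and 1 in 9 CFA libraries with a median of 0.814. CFA 9 and 10 stood at 1, and 6 of 9 CFA libraries lay above every control. The difference was 0.2702 (limma SE 0.0672), and 0.213 without them. H4, at chr4:183621029-183621461, ran from 0.0917 to 0.8 in 8 controls and from 0.0667 to 1 in 9 CFA libraries, with medians of 0.571 and 0.878. CFA 8, 9 and 10 all stood at 1, and the difference was 0.245 with them and 0.132 without them.

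H5, at chr11:72446952-72447539, ran from 0.222 to 0.929 in 10 controls and from 0.261 to 1 in 8 CFA libraries, with medians of 0.522 and 0.847. Within CFA, 7 of these values were at 0.729 or above and CFA 6 stood alone at 0.261. H6, at chr20:36932644-36933048, was the 1 region of the 12 with a value in every CFA library. It stood between 0.47 and 0.765 in 8 controls with a median of 0.675 and between 0.75 and 1 in 10 CFA libraries with a median of 0.847, and 8 of 10 CFA libraries lay above every control. CFA 8, 9 and 10, at 0.933, 0.75 and 0.8404, lay within the range of CFA 1 to 7, and the difference was 0.224 with them and 0.232 without them (limma SE 0.0533 with all libraries). These values rested on few CpGs, with means of 6.63 in controls and 4.14 in CFA 1 to 7.

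**Figure D4:**
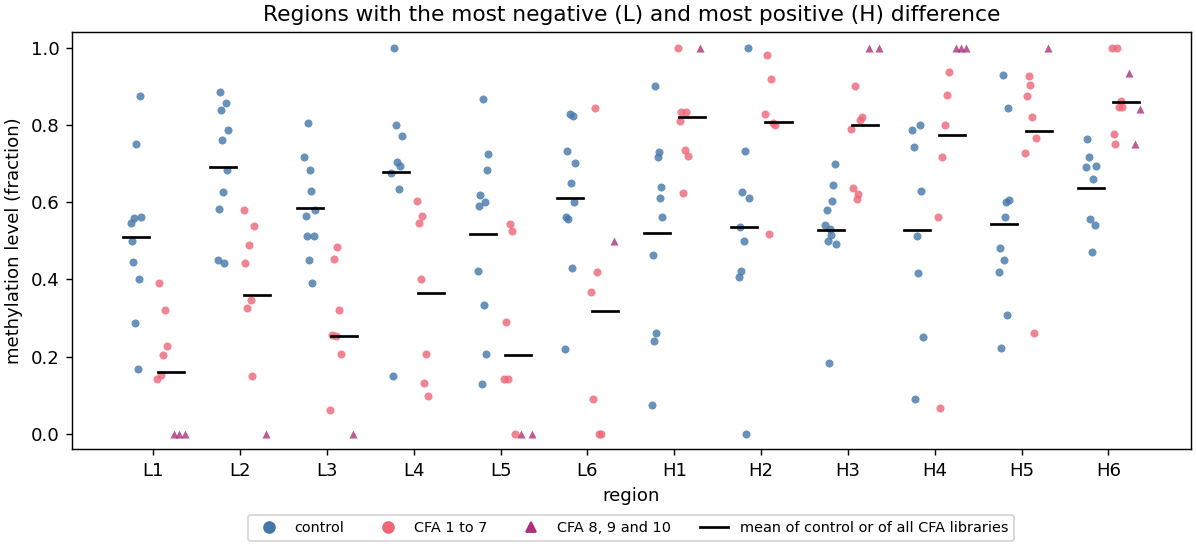
Methylation level (fraction, y axis) in each library for the regions L1 to L6 and H1 to H6 (x axis); circles are control and CFA 1 to 7 libraries, triangles CFA 8, 9 and 10, and bars the mean of controls or of all CFA libraries. Most triangles sit at 0 in the L regions and at 1 in the H regions, as in L1 with all 3 at 0 and H4 with all 3 at 1. The regions were chosen by the difference over all libraries, CFA 8, 9 and 10 included, so nothing is read from this.

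How far controls differed among themselves varied widely between members. The SD over controls ran from 0.0125 to 0.368 with a median of 0.125, and it was under 0.05 in 40 members and 0.2 or more in 137. It was widest where few CpGs stood behind a value. In the 275 members with the fewest CpGs in controls (means of 4.33 to 7.2) the median SD was 0.166, in the middle 259 it was 0.122 and in the 268 with the most (8.88 to 32.6) it was 0.103. CFA 1 to 7 showed the same order, at 0.129, 0.106 and 0.0884. The median size of the group difference in CFA 1 to 7 moved less across these classes, at 0.115, 0.107 and 0.101.

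The steadiest control levels were those of S1, S2 and S3, the first 2 of them near full methylation. S1, at chr3:120484219-120484436, stood between 0.921 and 0.962 in 10 controls with a median of 0.932. In CFA 1 to 7 it stood between 0.809 and 0.962 with a median of 0.931, and its groups overlapped. In CFA 8, 9 and 10 it stood at 0.6, 0.125 and 0.928, and 5 of 10 CFA libraries lay below every control. The difference was -0.13 with all libraries, -0.0206 without CFA 8, 9 and 10, and -0.0541 without CFA 9 alone. S2, at chr13:69371376-69371611, stood between 0.891 and 0.974 in controls and between 0.731 and 0.911 in CFA 1 to 7, with medians of 0.921 and 0.829. It had no value in CFA 8, 9 and 10, and 5 of 7 CFA libraries lay below every control.

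At the other end, V1 (chr12:39395199-39395576), V2 (chr10:39052003-39052269) and V3 (chr16:59253775-59254150) had the widest spread over controls. Each had 8 control values, which ran from 0.1 to 1 in V1, from 0 to 1 in V2 and from 0 to 0.98 in V3. In V1 and V3 these rested on means of only 5.25 and 5.88 CpGs, but in V2 on 9.25. CFA libraries ran from 0.433 to 1, from 0.0416 to 1 and from 0.287 to 1, and the groups overlapped in all 3. The group differences of 0.0968, 0.0006 and -0.03 were smaller than the SDs over controls of 0.368, 0.3499 and 0.346. They moved with single libraries, from 0.0106 to 0.149 in V1, from -0.0716 to 0.0712 in V2 and from -0.104 to 0.0371 in V3 when 1 library was left out, and without CFA 8, 9 and 10 the difference in V2 was -0.0996.

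The widest spread among CFA libraries was found in W1, at chr9:24920002-24920685. Its 10 controls lay between 0.755 and 0.917 with a median of 0.892. CFA 3, 4, 5, 6, 7 and 9 lay between 0.853 and 0.904, whereas CFA 1 stood at 0.0983 and CFA 2 at 0.0562. Both low values rested on 12 CpGs and the others on 13 to 15. The group difference was -0.182, and it was -0.099 without CFA 1 and -0.093 without CFA 2.

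How often levels parted in this way was then counted, a count chosen after W1 was seen. It used controls and CFA 1 to 7, values resting on at least 5 CpGs and regions with at least 12 such values. Among 635 such members, 5 (0.787%) had a gap of at least 0.4 between neighbouring levels, and W1 had the widest, at 0.657. In the other 4 a single library stood below the gap, from controls in 3 regions and from CFA 7 in 1. The same count gave 0.917% of 545 CpG-sparse regions mostly unmethylated in controls and 2.93% of 716 regions that were not CpG-sparse.

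In W2 and W3, the ends of the CFA range included CFA 8, 9 or 10. W2, at chr6:101623037-101623574, ran from 0.217 to 1 in 8 controls and from 0 to 1 in 8 CFA libraries, with CFA 8 at 0 and CFA 9 at 1. Its mean CpG number was 6.63 over these 8 CFA libraries and 8.33 over the 6 of CFA 1 to 7. The values of CFA 8 and CFA 9 thus rested on far fewer CpGs than the mean of CFA 1 to 7. W3, at chr11:31422831-31423454, ran from 0.107 to 0.766 in 10 controls and from 0 to 0.543 in CFA 1 to 7, while CFA 8 and 9 stood at 1 and CFA 10 at 0. In W3 the values of CFA 8, 9 and 10 rested on only 1, 1 and 4 CpGs, against a mean of 7.29 in CFA 1 to 7. The difference in W3 was -0.113 with all CFA libraries and -0.225 without those 3.

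The members with the most CpGs on average over all libraries, among those with at least 8 control values and 6 in CFA 1 to 7, were N1, N2 and N3, with SDs over controls of 0.0456, 0.074 and 0.121. N1, at chr10:89520518-89521299, had a mean of 32.6 CpGs in controls, against 21.7 in N2 and 21.1 in N3. It stood between 0.446 and 0.589 in controls with a median of 0.519 and between 0.341 and 0.549 in CFA 1 to 7 with a median of 0.454. CFA 9 stood at 1 and CFA 10 at 0.0941, outside both ranges. The value of CFA 9 rested on only 1 CpG and that of CFA 10 on 17, against 30 to 34 in controls and CFA 1 to 7. The difference was -0.0565 with all libraries, -0.124 without CFA 9 and -0.0106 without CFA 10. N2, at chr15:37312000-37312859, stood between 0.484 and 0.662 in controls and between 0.272 and 0.51 in CFA 1 to 7, with medians of 0.57 and 0.448. Of its 9 CFA libraries 7 lay below every control. Among these were CFA 9 at 0 and CFA 10 at 0.393, which rested on far fewer CpGs than the mean of 25 in CFA 1 to 7. The difference was -0.19 (limma SE 0.0594) with all libraries and -0.138 without CFA 8, 9 and 10. N3, at chr16:82580046-82580848, had overlapping groups, between 0.341 and 0.673 in controls and between 0.238 and 0.551 in 9 CFA libraries, 2 of which lay below every control.

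**Figure D5:**
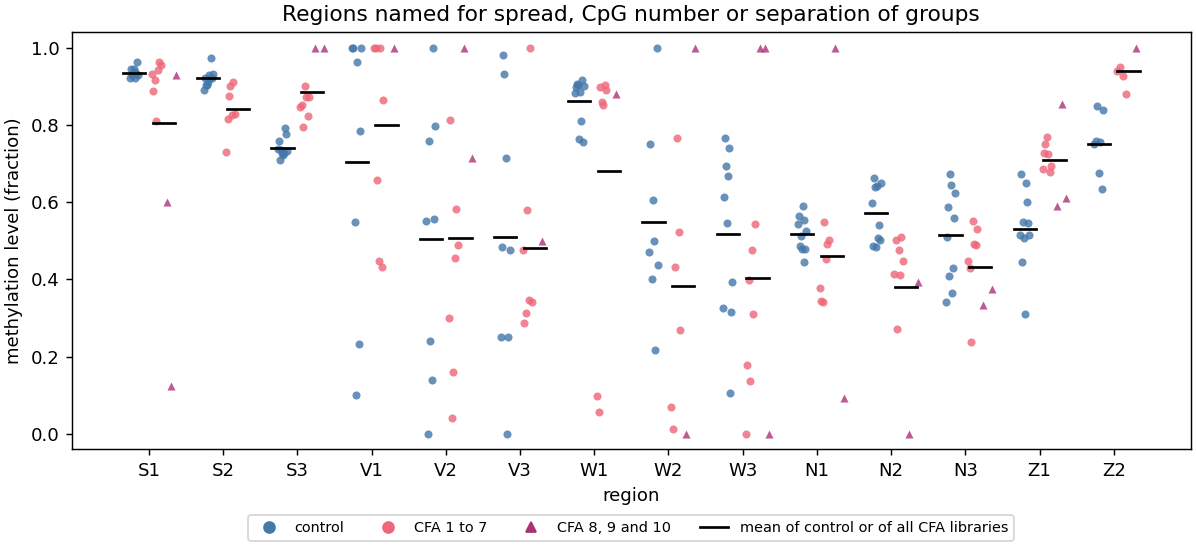
Methylation level (fraction, y axis) in each library for regions named for a steady (S) or variable (V) control level, a variable CFA level (W), many CpGs (N) or separated groups (Z1 and Z2, and S3); symbols as in the plot of the largest differences. In W1 CFA 1 and 2 stand at 0.0983 and 0.0562 below all other libraries. In N1 CFA 9 stands at 1 (from 1 CpG) and CFA 10 at 0.0941 (from 17 CpGs).

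Members near each other went the same way in some cases and opposite ways in others. In all, 11 pairs of neighbouring members lay within 10000 bases of each other, and in CFA 1 to 7 both were lower in 2 pairs, both higher in 3 and opposite in 6. The closest pair, chr7:127873727-127874010 and chr7:127874051-127874359, lay 41 bases apart. The control and CFA 1 to 7 means were 0.825 and 0.664 for the first, and 0.665 and 0.714 for the second. On chromosome 20, chr20:4692398-4692658 and chr20:4701326-4701876 were both higher in CFA 1 to 7, by 0.313 and 0.125. The first of these was the highest difference of all members in CFA 1 to 7. With all CFA libraries the differences of this pair were 0.22 and 0.189. With so few pairs this is a description, and neither test nor gene context is given.

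The likeness of libraries across members was described by the correlation of their levels. Across members with a value in both, the median Pearson r was 0.525 over 21 pairs within CFA 1 to 7, 0.358 over 45 pairs of controls and 0.298 over 70 pairs of 1 control and 1 of CFA 1 to 7. The rule narrows the range of the control levels but not that of the CFA levels, and all pairs share a list named for a group difference. Values also rested on more CpGs in CFA 1 to 7, with a mean over libraries of 8.98 against 8.44 in controls. The part of each of these in the correlations was not tested. Among CFA 8, 9 and 10 the median r was 0.398 over 3 pairs, and against them it was 0.308 for CFA 1 to 7 and 0.0989 for controls. The members were then split by the sign of the CFA 1 to 7 minus control difference, a split that itself sets controls and CFA 1 to 7 apart. In the 420 members lower in CFA 1 to 7, the library medians lay between 0.744 and 0.762 in controls, between 0.596 and 0.645 in CFA 1 to 7 and between 0.6 and 0.625 in CFA 8, 9 and 10. In the 382 that were higher, they lay between 0.644 and 0.7004, between 0.772 and 0.799 and between 0.909 and 0.935. The listed regions are named for a difference between the groups, and levels of exactly 1 were frequent in CFA 8, 9 and 10. Nothing is read from where the medians of these 3 libraries lay.

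The number of CpGs behind a value was compared as a measure that the rule used only through its maximum. No member passed the threshold. Limma on log2 CpG number called 0 of 800 members lower and 0 higher, against 0.0% of 2434 regions in each direction, and 0 of 782 without CFA 8, 9 and 10, against 0.0% of 2337. An unadjusted p under 0.05 was found for 26 members (10 lower and 16 higher), against 2.59% of all regions (1.11% lower and 1.48% higher). Without the 3 libraries it was found for 31 (3 lower and 28 higher), against 3.42% (0.813% lower and 2.61% higher). The mean over members was 8.38 CpGs in controls, 8.37 in all CFA libraries and 8.94 in CFA 1 to 7. With all CFA libraries, CFA had more CpGs than controls in 382 members and fewer in 408, and with CFA 1 to 7 it had more in 546 and fewer in 237. The part of this CpG number in the level differences was not tested.

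Against the rest of the list, members differed by the rule in control level (a median of 0.696, against 0.332 in CpG-sparse regions mostly unmethylated in controls and 0.503 in regions that were not CpG-sparse). Their median SD over controls was 0.125, against 0.145 and 0.146. The median size of the group difference was 0.122, against 0.133 in both other sets. The CFA mean was lower in 51.1% of members, 40.7% of the CpG-sparse regions mostly unmethylated and 48.0% of the regions that were not CpG-sparse. Since the control level sorted the first 2 sets, no test of these shares is given.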

How the data were processed

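Ganglion DNA was bisulfite-sequenced in 10 control and 10 CFA libraries, and each library's deposited file lists regions with a mean level and a CpG number. The submitters' processing notes name Trim Galore 0.6.4, Bismark 0.22.0 and the build rn4 for the series, without steps. The deposited values are a fraction (mean methylation level) and a number of CpGs per region, per the file headers. The sources used here state no region caller and no coverage minimum, and the depth behind a level is unknown. Coordinates are as listed, and whether starts count from 0 or 1 is not stated. Deposited small RNA files hold raw counts, per the file headers, and were scaled here to CPM of each library's total. No sequence or gene context of this build was used. The mRNA counts were not used here.

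Levels, and log2 CpG numbers, were tested per region with limma 3.58.1 in R 4.3.3 (robust empirical Bayes, two-sided, Benjamini-Hochberg over all regions with at least 5 values per group, threshold 0.05), a step tested on simulated data. The labels do not say how the libraries of a group were obtained beyond separate rats, so p-values measure the spread between these libraries. Alternatives were leaving out CFA 8, 9 and 10 or single libraries, a logit scale (offset 0.01), CpG weights, sample quality weights, the replicate number as a block, at least 8 values per group and no robust settings.

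Members and lists were chosen with earlier results of these data known. Named were, among members with at least 8 control values and 6 in CFA 1 to 7, the 6 most negative and 6 most positive differences, the 3 lowest and 3 highest SDs over controls, the 3 highest SDs over CFA and the 3 with most CpGs on average over all libraries. Regions named for separated groups, neighbours and the gap count were added after the values were seen.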

Additional observations from a re-analysis of the deposited data

Results flagged for a closer look

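In 60 sets of values (the named regions and 4 summaries over members, each in controls and in CFA), 10 had a single library far from the others of its group. Chance gives about 1 in 20 for sets not chosen on their values, but most of these regions were chosen on theirs, so the count is not read against it. Among controls, control 4 was lowest in L4 at 0.15 (next 0.633) and in H3 at 0.183 (next 0.492), and control 8 was highest in S2 at 0.974 (next 0.932). The mean level over members was lowest in control 5, at 0.676 (next 0.692).

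Among CFA libraries, CFA 9 accounted for 3 of the flagged values. It stood at 0.125 in S1 (next 0.6), at 1 in N1 (next 0.549) and at 0 in N2 (next 0.272). The value in N1 rested on only 1 CpG. In S1 and N2 the mean CpG number was 8.8 and 20.7 over all CFA libraries, against 10 and 25 in CFA 1 to 7. The values of CFA 9 and CFA 10 in N2 thus rested on far fewer CpGs than that mean of 25. CFA 6 was lowest in H5 at 0.261 (next 0.729) and highest in V3 at 1 (next 0.58), and CFA 3 was lowest in H4 at 0.0667 (next 0.563).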

How the results depend on the processing

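The count of members called lower by limma, 0 with all libraries, was 2 (L1 and L3, adjusted p = 0.0454 and 0.035) with at least 8 values per group. In that setting fewer regions were tested, 573 members among 1467 regions, and 4 of all regions were called lower and 2 higher. When single libraries were left out, the count was between 0 and 1, against 2 to 5 called lower among all regions. L3 was called without control 8, CFA 3 or CFA 5 (adjusted p = 0.0384, 0.0458 and 0.0247), L1 without control 7 (0.0226) and chr17:38585456-38585824 without CFA 7 (0.0422). None was called higher in any of 28 alternatives, in which 0 to 3 of all regions were. The count with an unadjusted p under 0.05 ran from 202 of 782 members (564 of 2336 regions) to 304 of 800 (819 of 2434 regions). The number of non-overlapping members ran from 1 (without CFA 9) to 5 (without control 2), with 4 without control 1, control 4 or CFA 1. The count called for fewer CpGs ran from 0 to 1, the 1 being chr3:148982275-148982674 without CFA 7 (adjusted p = 0.0309). For non-overlap and for fewer CpGs, no count over all regions is given with single libraries left out, so nothing is read from these ranges. The median difference of -0.0153 ran from -0.0524 (CpG weights) to -0.0056 (a single library left out). The number of members ran from 546 (10 control values needed) to 1005 under the other limits tried. With the replicate block, limma called 0 of 800 members, against 1 of 2433 regions called lower and 0 higher. An unadjusted limma p under 0.05 was found there for 218 members, against 629 of all regions. Without CFA 8, 9 and 10, a fit added after seeing the data, it was found for 202 of 782 members, against 564 of 2336 regions. Nothing is read from these counts. Same-numbered libraries did not deviate together (correlations of -0.0914 to 0.0719), and 2 of 10 CFA libraries went best with their own number. Of 572 differences of named regions under the alternatives, 558 stayed within 1 control SD. That SD was wide in V1 to V3 and in other regions, such as H4 (0.261) and W3 (0.22), so large shifts could stay within it. Without CFA 8, 9 and 10 the difference went from 0.245 to 0.132 in H4. In W3 it went from -0.113 to -0.225, and both counted as within. The differences in V2 (0.0006) and V3 (-0.03) changed sign under some alternatives. Depth is unknown, so no limit from it can be given.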
